A study of Mus musculus with 173 samples.

Results

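Oligodendrocyte precursor-like libraries were picked out of a series of single-cell RNA-seq libraries from the mouse dentate gyrus, and those of title class C were set against those of title class N. The members were chosen by measured values: the mean log2(TPM + 1) over Pdgfra, Cspg4, Olig1, Olig2, Sox10, Gpr17, Lhfpl3 and C1ql1 had to be at least 4. TPM is a share of a library's transcripts that is scaled for gene length. This took 12 of 172 libraries: 6 C libraries, 6 of the 26 N libraries and 0 of the 4 R libraries; all other libraries are of class C. The C members are C45, C139, C80, C108, C132 and C113, and the N members are N24, N10, N2, N15, N1 and N20. Just inside the level lay N20 (4.14) and N1 (4.78), and just outside it lay N25 (3.51) and C27 (3.25).

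All libraries came from C57BL/6 animals aged 8 to 12 weeks, each from a single cell of the dentate gyrus, with the same label in every field except the title. The labels spell out neither the class letters nor any sort, and they name no animal, date or batch. With no animal known, a class is 1 sample, so there are no tests or p-values, and every comparison describes these libraries alone. The deposited table has a row for a transgene, the cyan fluorescent protein eCFP, whose driver the labels do not name; the published study is known for mice in which regulatory sequences of Nes, an intermediate filament gene of neural stem cells, drive nuclear CFP. In the table, the number in each title equals the library's rank by eCFP within its class in all C, N and R libraries, so a low number means a high eCFP value.

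Oligodendrocyte precursors are glial cells that persist in the adult brain, divide slowly and give rise to myelinating oligodendrocytes. They are recognised by Pdgfra, the receptor for platelet-derived growth factor A, which drives their division, and by Cspg4, the surface proteoglycan NG2. The transcription factors Olig1, Olig2 and Sox10 hold the lineage identity, and the receptor Gpr17 marks precursors that are starting to differentiate. How precursors with much of a stem cell reporter compare with precursors that have little of it is the question the comparison addresses.

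Between 2465 and 5474 genes reached a TPM of 1 in the C members (median 4058), and between 2250 and 4474 did in the N members (median 3699.5). Of all values in the 12 libraries, 78.9% were listed at 0, which may stand for a missing estimate or a missing transcript. Sequencing depth cannot be had from TPM. Levels are therefore given as the lowest, the median and the highest library of each class, without a standard deviation.

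eCFP differed between the classes, and its ranges overlapped. It was listed at 11588 TPM in C45, 7778 TPM in C80, 4708 TPM in C108, 4346 TPM in C113, 1812 TPM in C132 and 988 TPM in C139. In the N members it was 1306 TPM in N1, 748 TPM in N2, 75.5 TPM in N10, 41.7 TPM in N15, 32.8 TPM in N20 and 20.4 TPM in N24. The medians were 4527 TPM in C and 58.6 TPM in N, and the difference of the mean log2(TPM + 1) was 5.07. N1 lay above C139, so the name "eCFP-high against eCFP-low" holds for 5 of the 6 C members against every N member. N1 and N2 were also the highest and second highest of the 26 N libraries of the series in eCFP; the other 20 N libraries ran from 17.3 to 450.6 TPM. The C members were low for their class, with a median of 4527 TPM against 8835 TPM in the other C libraries.

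**Figure D1:**
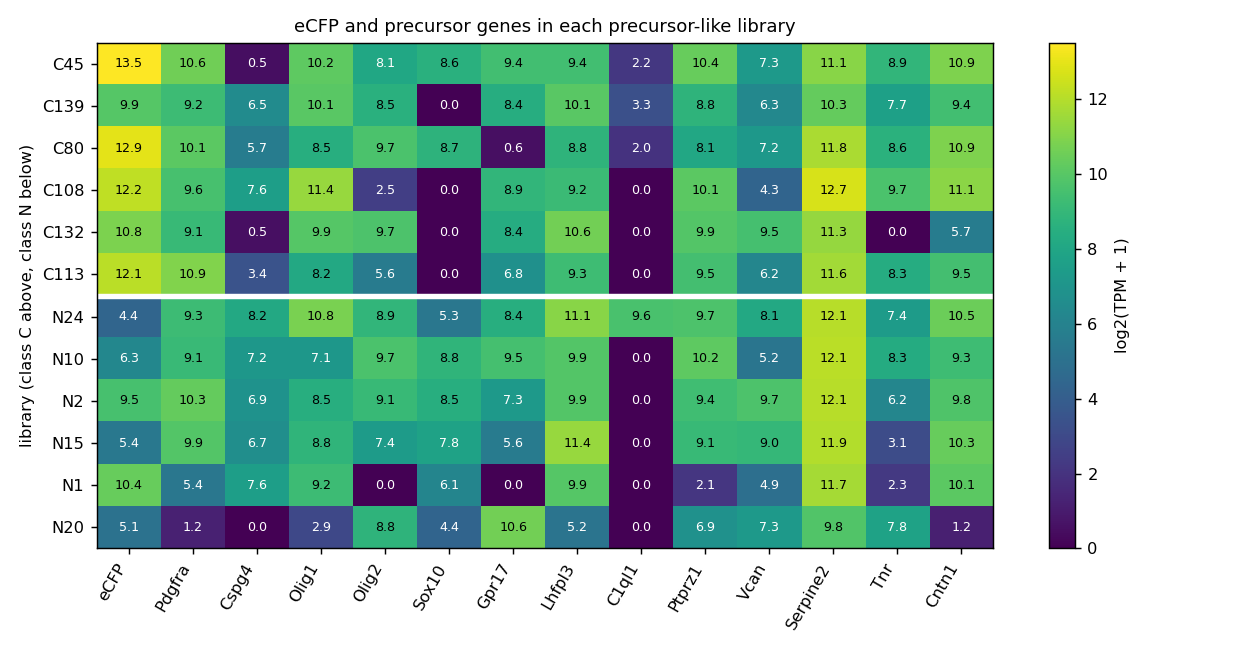
Level of eCFP, the 8 genes that chose the members, and 5 further precursor genes, as log2(TPM + 1), in each precursor-like library (class C above the white line, class N below). The eCFP column separates the classes except that N1 lies above C139. Most precursor genes are high in libraries on both sides, but Sox10 is listed at 0 in 4 C members and C1ql1 is high only in N24.

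The genes that chose the members are a description of both classes. Pdgfra was high in every C member, at 539, 934 and 1960 TPM (lowest, median and highest), against 1.34, 584 and 1249 TPM in the N members, where N20 and N1 (39.8 TPM) were the low ones. The difference of 2.40 was 1.14 without N20 and 0.20 without C113, C139, N1 and N20. Lhfpl3, a tetraspan membrane protein, was at 433, 660 and 1600 TPM in C and at 36.1, 958 and 2746 TPM in N. Olig1 was at 286, 1027 and 2742 TPM in C and at 6.6, 406 and 1744 TPM in N. These 3 genes were thus seen in all 12 libraries. Others were patchy. Sox10 was listed at 0 in 4 of 6 C members and was at 381 TPM in C45 and 427 TPM in C80, while all 6 N members had it, from 19.4 to 453 TPM. Cspg4 reached a TPM of 1 in 4 C and 5 N members, with a median of 29.7 TPM in C and a median of 130.5 TPM in N; its difference of -2.04 was -3.26 without N20, -1.33 without C45 and -1.34 without C132. Olig2 was at 4.64 TPM in C108 and listed at 0 in N1, and its median was 319 TPM in C members and 459 TPM in N members. Gpr17 was at 0.49 TPM in C80 and listed at 0 in N1, and otherwise ran from 110 to 672 TPM in C and from 47.98 to 1564 TPM in N. C1ql1, a secreted C1q-like protein, exceeded 10 TPM only in N24 (787 TPM).

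Several precursor genes that the rule did not use were high in both classes, and others of the same list were low in both. Serpine2, a secreted protease inhibitor, was at 1259, 2858.5 and 6641 TPM in the C members and at 906, 4098 and 4470 TPM in the N members. Ptprz1, a receptor phosphatase that carries chondroitin sulphate, was at 276, 833 and 1305 TPM in C and at 3.37, 605 and 1137 TPM in N, where N1 was the low library. Vcan, the matrix proteoglycan versican, was at 19.1, 113.2 and 742 TPM in C and at 29.7, 219 and 845 TPM in N. The ranges of the classes overlapped for all 3 genes. Ptprz1 is not particular to precursors, as the other C libraries had a median of 445 TPM. Among the low ones, Matn4, the matrix protein matrilin-4, was seen at a TPM of 1 or more in 2 members of each class. Nkx2-2, a transcription factor of the lineage, was seen in 3 members of each class and did not exceed 31.8 TPM in C or 42.4 TPM in N. Sox8, a relative of Sox10, was seen in 1 C member (582 TPM) and in 2 N members (at most 14.9 TPM). Tnr, the matrix glycoprotein tenascin-R, was listed at 0 in C132 only, and Cntn1, the adhesion molecule contactin 1, was at 50.8 TPM in C132 and 1.25 TPM in N20 and at 623 TPM or more in the other 10 libraries. The list of 24 other precursor genes had a mean log2(TPM + 1) of 4.39, 5.35 and 5.93 in C and of 2.99, 5.39 and 7.26 in N. All other C libraries lay below the lowest C member in this list, as their highest value was 3.55. The other N libraries reached at most 2.81. N1, the lowest N member at 2.99, lay above these but below the highest of the other C libraries.

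Within that list the classes differed gene by gene and in both directions. A gene was called when its mean log2(TPM + 1) differed by at least 2 between the classes, among the 6563 genes with a TPM of at least 1 in at least 3 of the 12 libraries. By this measure 12.7% of all genes were called higher in C and 9.04% lower, with a median difference of 0.18. Of the 24 list genes, which all passed the filter, 4 were called higher (Sox6, Cacng4, Pcdh15 and Cspg5) and 4 lower (among them Ncan, Neu4 and Scrg1), with a median of -0.01. Cacng4 passed only because of the C libraries. Cspg5, the proteoglycan neuroglycan C, had the largest difference, at 163, 301 and 1531 TPM in C and 1.95, 59.9 and 575 TPM in N (difference 3.03), and the ranges overlapped. Without C113, C139, N1 and N20 its difference was 1.05. Ncan, the proteoglycan neurocan, was at 0, 10.2 and 80.7 TPM in C, while in N it was at 659 TPM in N24, 319.5 TPM in N2, 299 TPM in N10 and between 0.25 and 21.2 TPM in the other 3. Some called members moved when 1 library was left out. Sox6, a transcription factor (2.43), was 1.53 without N1. Cacng4, an AMPA receptor accessory protein (2.10), was 0.85 without C132, 1.08 without C113 and 3.85 without N24. Scrg1 (-2.34) was -0.93 without C108 or without C132. Pcdh15, a protocadherin (2.32), was -0.01 with C113, C139, N1 and N20 all left out.

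Ranges that did not overlap between the classes were rare over all genes. Every C member lay above every N member in 1 of 6563 genes (0.0152%), and every C member lay below every N member in 2 (0.0305%). The gene above was Supt16, a subunit of the histone chaperone FACT. It was at 738, 339, 125.1, 114.9, 1.77 and 1.40 TPM in C132, C108, C45, C80, C139 and C113, and it was listed at 0 in 5 N members and at 0.56 TPM in N15 (difference 5.64). The genes below were March2, a ubiquitin ligase, with 0 to 1.21 TPM in C and 1.31 to 9.34 TPM in N, and Sdc4, the proteoglycan syndecan-4, with 0 to 0.77 TPM in C and 1.13 to 3.24 TPM in N. Both are levels of a few TPM. Leaving out 1 library at a time gave 3 to 14 genes upward, the most without C80, and 2 to 6 downward, the most without C45 or without N1. Without N20 and C139 the ranges were apart in 11 genes upward and 9 downward. Without those libraries, C113 and N1 they were apart in 26 and 67, and having fewer libraries makes separation easier.

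The libraries were no more alike within a class than between classes. Pearson's r over the 6563 genes, on log2(TPM + 1), had a median of 0.226 in the 15 pairs of C members, 0.235 in the 36 pairs of a C and an N member and 0.225 in the 15 pairs of N members. The single pairs ran from 0.169 to 0.273 (C with C), from 0.154 to 0.288 (C with N) and from 0.174 to 0.290 (N with N). For 5 of the 12 libraries the most similar other library belonged to the same class. N15 was the most similar library to C45, C139, C80, C113, N24, N2 and N1, so that count depends largely on the class of N15. These coefficients describe pairs that share libraries and genes, and they carry no p.

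**Figure D2:**
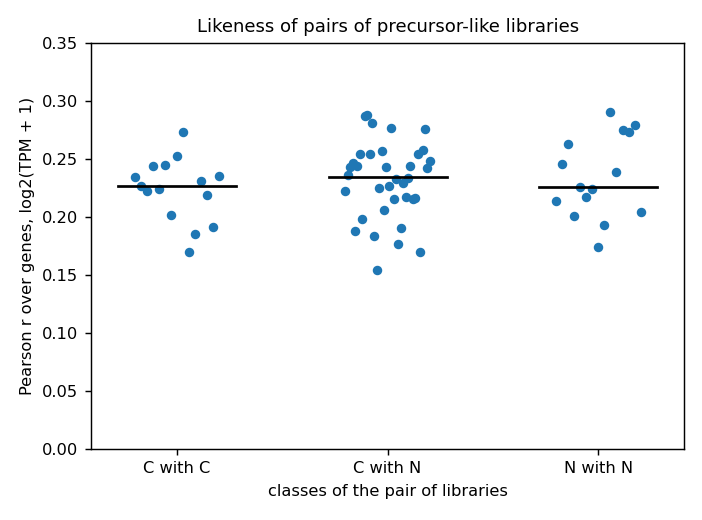
Pearson's r over 6563 genes on log2(TPM + 1) for each pair of precursor-like libraries, by the classes of the pair; each point is a pair and the bar is the median. The 3 medians lie close together, at 0.226, 0.235 and 0.225.

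Stem cell genes were low in the C members next to the other C libraries. The neural stem cell list (14 genes) had a mean log2(TPM + 1) of 3.23, 3.54 and 5.07 in the C members and of 2.80, 3.38 and 4.805 in the N members. The other C libraries had a median of 7.09, and 86.03% of them lay above the highest C member. Slc1a3, a glial glutamate transporter, was at 128.9, 256 and 748 TPM in the C members and at 8.65, 143 and 985 TPM in the N members, against a median of 4165 TPM in the other C libraries. Hopx, a homeodomain transcription cofactor of quiescent stem cells, was seen at 2.34 TPM in C80 alone of the C members and at 2.19 to 13.98 TPM in 4 N members. Among the other C libraries 94.9% had it at a TPM of at least 1. Gfap, the filament of astrocytes and radial stem cells, did not exceed 3.07 TPM in C or 3.91 TPM in N, with a median of 71.2 TPM in the other C libraries. Sox9, a glial transcription factor, was at or below 4.17 TPM in C and above 3 TPM in N only in N24 (186 TPM); its median was 545 TPM in the other C libraries.

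Some genes of that list were shared by precursors and stem cells. Fabp7, a fatty acid-binding protein of radial glia, was at 4.51 TPM in C45 and from 1635 to 4190 TPM in the other 5 C members, and at 85.6 TPM in N20 and from 1436 to 7974 TPM in the other 5 N members. Apoe, a lipid carrier, was between 34.4 and 4515 TPM in C and between 14.1 and 2209 TPM in N. Aldoc, a glycolytic aldolase of astroglia, was the list member furthest apart, at 13.6, 91.1 and 1788 TPM in C and 38.8, 1291 and 3518 TPM in N (difference -2.33). Sox2, a stem cell transcription factor, reached a TPM of 1 in 3 C and 2 N members, and at its highest was 199 TPM in C132 and 80.3 TPM in N20. Of the 14 genes, which all passed the filter, 0 were called higher and 1 lower, against 12.7% and 9.04% of all genes. The median of the list was 0.43.

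Within the C members Nes did not follow the order of eCFP. It was at 168 TPM in C139, 1.53 TPM in C45, 1.19 TPM in C132, 0.38 TPM in C113 and listed at 0 in C80 and C108. In N it was at 9.02 TPM in N24 and listed at 0 in the other 5. The class difference of Nes had the direction of eCFP, at 1.17, but was 0.03 without C139. The library with the most Nes thus had the least eCFP of the 6 C members. C139 was also the library with high endothelial genes, described below. Among the other C libraries 28.7% had Nes at a TPM of at least 1.

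**Figure D3:**
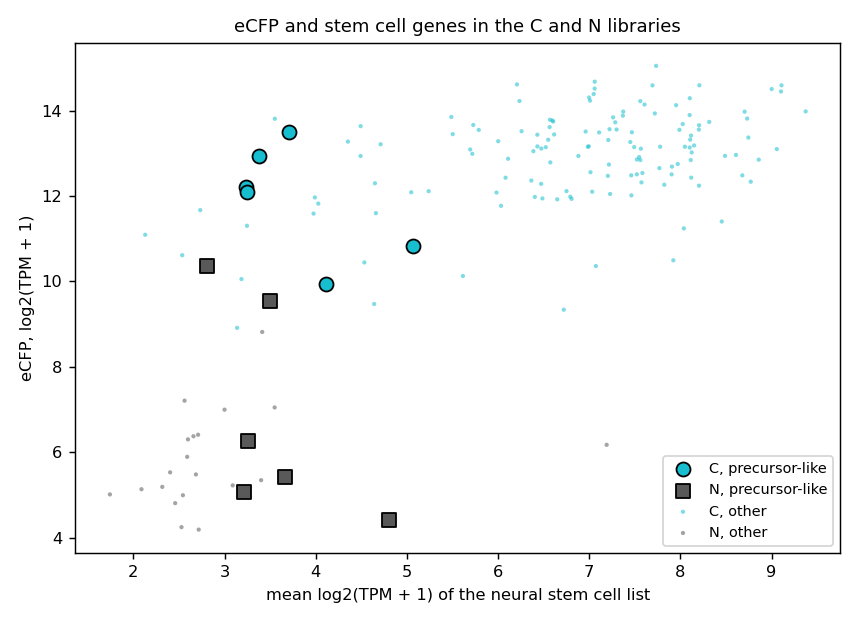
eCFP as log2(TPM + 1) against the mean log2(TPM + 1) of the neural stem cell list, for all C and N libraries; the large outlined symbols are the precursor-like libraries. The C members run from 988 TPM (C139) to 11588 TPM (C45) of eCFP. Their stem cell list means, from 3.23 to 5.07, place them to the left of most other C libraries (median 7.09).

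Genes of the cell cycle were higher, by list mean, in several C members than in any N member. Mki67, a protein of dividing cells, was at 504 TPM in C113, 192 TPM in C132 and 129.2 TPM in C45, at 0.49 TPM or less in the other 3 C members, and at 1.02 TPM or less in every N member. Cdk1, the mitotic kinase, was at 565 TPM in C113 and 429 TPM in C80, from 0 to 11.5 TPM in the other C members, and from 0 to 2.03 TPM in N. Birc5, the mitotic protein survivin, was at 1947 TPM in C113, 984 TPM in C132 and from 1.46 to 36.03 TPM in the other C members, and from 1.12 to 21.1 TPM in N. C113 was the highest library for all 3 genes. Without C113 the difference of Birc5 was 1.97, against 2.99 with it.

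By list, the S phase genes (20) had a mean log2(TPM + 1) of 0.44, 1.89 and 4.86 in C and of 0.79, 1.05 and 1.25 in N. C80 (4.86), C113 (3.60) and C45 (2.52) were the high libraries, with Gins2, a part of the replicative helicase, at 1993 TPM in C80 and Pcna, the sliding clamp of replication, at 995 TPM in C45. The genes of G2 and mitosis (21) had 0.60, 1.40 and 8.51 in C and 0.39, 0.63 and 0.84 in N, and C113 alone was far up, with Ccnb1, a mitotic cyclin, at 3480 TPM and Top2a, the topoisomerase of dividing cells, at 2095 TPM. Of the 20 S phase genes 13 passed the filter, 6 were called higher in C and 0 lower. Of the 21 genes of G2 and mitosis 11 passed, with 5 called higher and 0 lower. The shares among all genes were 12.7% and 9.04%. Many genes of both lists passed only because of the C libraries, so the list counts carry no weight of their own. In the list of G2 and mitosis the next C member after C113 was C132, with a mean of 1.80. Single libraries carried some of these calls: without C80 the difference of Gins2 was 0.77 (2.40 with it), without C45 that of Pcna 1.15 (2.30) and without C113 that of Ccnb1 0.59 (2.38).

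Other genes linked to growth and chromatin also varied between libraries, and the high libraries were not always those of the cell cycle genes. Cdk4, a G1 kinase, was at 3010 TPM in C132, 725 TPM in C139, 211 TPM in C113, 6.81 TPM in C108 and listed at 0 in C45 and C80, and was at most 2.57 TPM in N (difference 4.51). Dut, an enzyme that keeps uracil out of DNA, was at 490 TPM in C45, 107.5 TPM in C80 and 23.6 TPM in C113, and at most 1.61 TPM in N (3.38). Of the 12 genes of the high mobility group and chromatin list 10 passed the filter, all 10 had a higher mean in C, and 3 were called (Hmgb3, Hmgn3 and H2afz), with a median of 1.41. Over all 6563 genes 3631 had a higher mean in C, and 12.7% were called higher. Hmgb3, a chromatin protein, was at 757 TPM in C113, 728 TPM in C132 and 579.5 TPM in C139 and at most 1.28 TPM in the other C members, while in N it was at 80.5 TPM in N1 and at most 6.99 TPM elsewhere (3.24). H2afz, a histone variant, was above 273 TPM in every C member, up to 9556 TPM in C80, and ran from 11.9 to 3536 TPM in N (2.53, or 1.55 without N10). Hmgn3, a nucleosome-binding protein (2.20), was 1.22 without N15, 1.42 without C108 and between 3.60 and 3.62 without N2 or without C45, and it turned to -0.40 without C113, C139, N1 and N20.

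**Figure D4:**
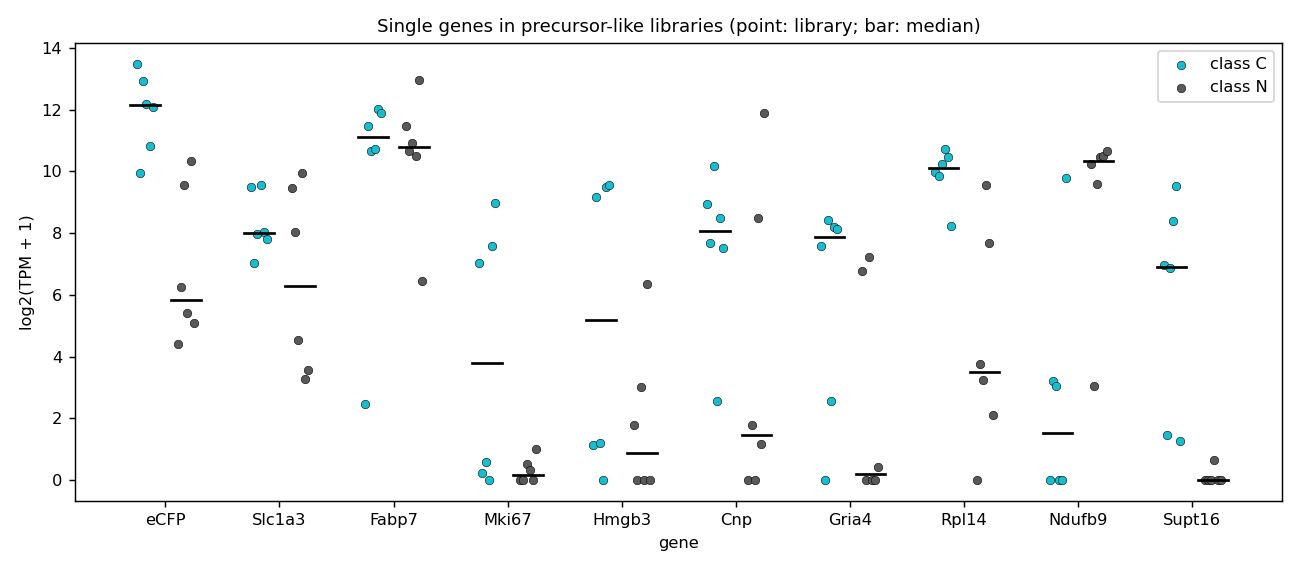
log2(TPM + 1) of eCFP and 9 genes in the precursor-like libraries, with class C to the left of class N for each gene; points are libraries and bars are medians. Except for Supt16, where the lowest C member (1.40 TPM) lies above the highest N member (0.56 TPM), the classes overlap.

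Myelin genes set N20 apart from all other members. Mbp, a protein of the myelin sheath, was at 17558 TPM in N20, and Cnp, a myelin enzyme, was at 3825 TPM. In the same library Bcas1, which marks early myelinating cells, was at 2418 TPM, the kinase Fyn at 2313 TPM and Enpp6, a choline phosphodiesterase of newly formed oligodendrocytes, at 188 TPM. Bmp4, a growth factor of committed precursors, was at 21.1 TPM in N20 and listed at 0 in the other 11 libraries. The mean of the newly formed oligodendrocyte list was 6.83 in N20, against 0.87 to 1.98 in the other N members and 0.77 to 2.65 in the C members. Of its 18 genes 9 passed the filter. Of these, 0 were called higher in C and 2 lower (Bcas1 and Nfasc), against 12.7% and 9.04% of all genes. The median of the list, -1.47, was -0.54 without N20. Bcas1 alone had a difference of -2.49, which was -1.12 without N20 and -1.54 without N10. With Pdgfra at 1.34 TPM and Cspg4 listed at 0, N20 goes against the precursor name. Its rule mean of 4.14 came mostly from Gpr17 (1564 TPM), Olig2 (445 TPM), Lhfpl3 (36.1 TPM) and Sox10 (19.4 TPM). The low values of Olig1 (6.6 TPM) and Pdgfra were also needed to reach the level of 4. The precursor genes were mixed in N1 too. There Olig2 and Gpr17 were listed at 0, while Olig1 was at 599 TPM, Lhfpl3 at 966 TPM and Cspg4 at 189 TPM. N1 also had the fewest genes at a TPM of 1 (2250) and the largest share of values at 0 (87.4%) of the members.

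Cnp was also present in most C members. Cnp reached 100 TPM in 5 of 6 C members (183 to 1170 TPM), against N15 (361 TPM) and N20 among N. The difference for Cnp was 3.68, and 5.28 without N20. On the log2 of the mean TPM, where N20 dominates, it turned to -0.79. Mbp was at 349 TPM in C139 and at 0.86 to 16.6 TPM in the other C members. In N it was at 338 TPM in N10 and at most 1.71 TPM in the members other than N10 and N20. The difference of Mbp, -0.11, depended on the setting. It turned positive in 11 of 26 alternatives and ran from -5.49 to 2.64. Of the late genes, Mog, Mag, Mobp and Opalin did not exceed 7.41 TPM in any of the 12 libraries. Others of the list were high in single libraries. Trf was at 653 TPM in N20 and Qdpr at 720 TPM in N2. Gal3st1 was at 610 TPM in C45, 524 TPM in N24 and 367 TPM in N20. Of the 20 mature oligodendrocyte genes 13 passed the filter, with 3 called higher in C (among them Cnp and Ugt8a) and 0 lower. Among all genes 12.7% were called higher and 9.04% lower. Ugt8a passed only because of the C libraries, so this count carries no weight of its own. The median of the list was -0.11, and without N20 it was 1.05. Ugt8a, an enzyme of myelin lipid synthesis (2.06), was 0.90 without C108 and 3.17 without N24.

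Signalling genes downstream of growth factor receptors were high in some members and at or near 0 in others. Spry4, a feedback inhibitor of receptor tyrosine kinases, was at 336 TPM in C80, 210 TPM in C139, 206.5 TPM in C132 and 7.41 TPM in C45 and listed at 0 in the other 2 C members, while in N it was at 90.8 TPM in N24 and at most 0.56 TPM elsewhere (difference 3.21). Dusp6, an ERK phosphatase, was at 934 TPM in C80 and 64.9 TPM in C113 and at most 1.5 TPM in the other C members, and was listed at 0 in all N members. Etv1, an ETS transcription factor, was at 221 to 643 TPM in 4 C members and at 260 to 659 TPM in 4 N members. Of the 14 genes of the PDGF and FGF list 8 passed the filter, with 3 called higher (Spry4, Dusp6 and Etv5) and 0 lower, against 12.7% and 9.04% of all genes. These 3 passed only because of the C libraries, so this count too carries no weight of its own. Etv5, a related factor (2.07), was 1.09 without C132, 1.14 without C113 and 3.66 without N24. In the Notch list 6 of 14 passed. Dll1, a Notch ligand, was at 549 TPM in C108, 184 TPM in C80 and at most 16.2 TPM in the other C members, and at 436 TPM in N24 and listed at 0 in the other N members (2.86, or 1.90 without C108 and 4.32 without N24). Jag1, another ligand, was called lower in C, with 10.2 TPM in C113 and at most 0.31 TPM in the other C members, against 0 to 82.02 TPM in N (-2.04, or -1.30 without N2).

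Receptor and channel genes typical of precursors were found in both classes. Gria2, a subunit of AMPA-type glutamate receptors, was at 2.03, 322 and 1078 TPM in C and 28.9, 361 and 1208 TPM in N. Gria4, another subunit, was at 346 TPM in C80, 292 TPM in C132, 281.5 TPM in C113 and 193 TPM in C45, at most 4.88 TPM in the other 2 C members, and at 149 TPM in N2, 109.4 TPM in N24 and at most 0.33 TPM in the other N members (difference 3.42). Gabrg1, a subunit of GABA-A receptors, was at 1674 TPM in C108, 322 TPM in C80, 78.7 TPM in C45 and 35.4 TPM in C113 and listed at 0 in C139 and C132, while in N it was at 147 TPM in N1 and listed at 0 in the other 5 (3.89). Of the 15 receptor genes 8 passed the filter, with 3 called higher and 1 lower, against 12.7% and 9.04% of all genes. Gria4 and Gabrg1, both called higher, passed only because of the C libraries, so the count carries no weight of its own. The median of the list was 0.10. Kcnj10, the potassium channel Kir4.1, was at 0.16, 120.5 and 329 TPM in C and 0.35, 1.25 and 427 TPM in N (2.78, or 0.66 without C113, C139, N1 and N20). Itgb1, the integrin beta 1 chain, was at most 2.35 TPM in C, while N10 had 792.5 TPM, N24 751 TPM and N15 93.5 TPM (-3.87).

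Marker lists of other cell types had low means, apart from the endothelial list in C139. There its mean was 6.81, against 0.37 to 1.48 in the other C members and 0.06 to 1.37 in N. Cldn5, the tight junction protein of endothelium, was at 824 TPM in C139 and listed at 0 in the other 11 libraries, and Itm2a was at 5064 TPM and Slco1a4, a transporter of brain endothelium, at 465 TPM there. Itm2a was also at 1325 TPM in C108 and 436.5 TPM in N24, and Pecam1 was listed at 0 in all 12. The part of RNA from a second cell in C139 was not tested. Globin transcripts gave N2 and N1 erythroid list means of 3.87 and 3.60, against at most 2.68 in the other members. Astrocyte list means did not exceed 2.76 in C and 2.48 in N, microglial ones 1.65 and 1.33, mural ones 2.02 and 1.12, and mature neuron ones 1.20 and 1.94. Pvalb, a calcium-binding protein of interneurons, was nonetheless at 935 TPM in N1 and 225 TPM in N15, and at most 3.88 TPM in C. S100b, a glial calcium-binding protein that precursors share with astrocytes, was at 0, 376 and 1348 TPM in C and 27.7, 391 and 2835 TPM in N (difference -2.37, or -1.43 without C80 and -1.13 without C108).

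**Figure D5:**
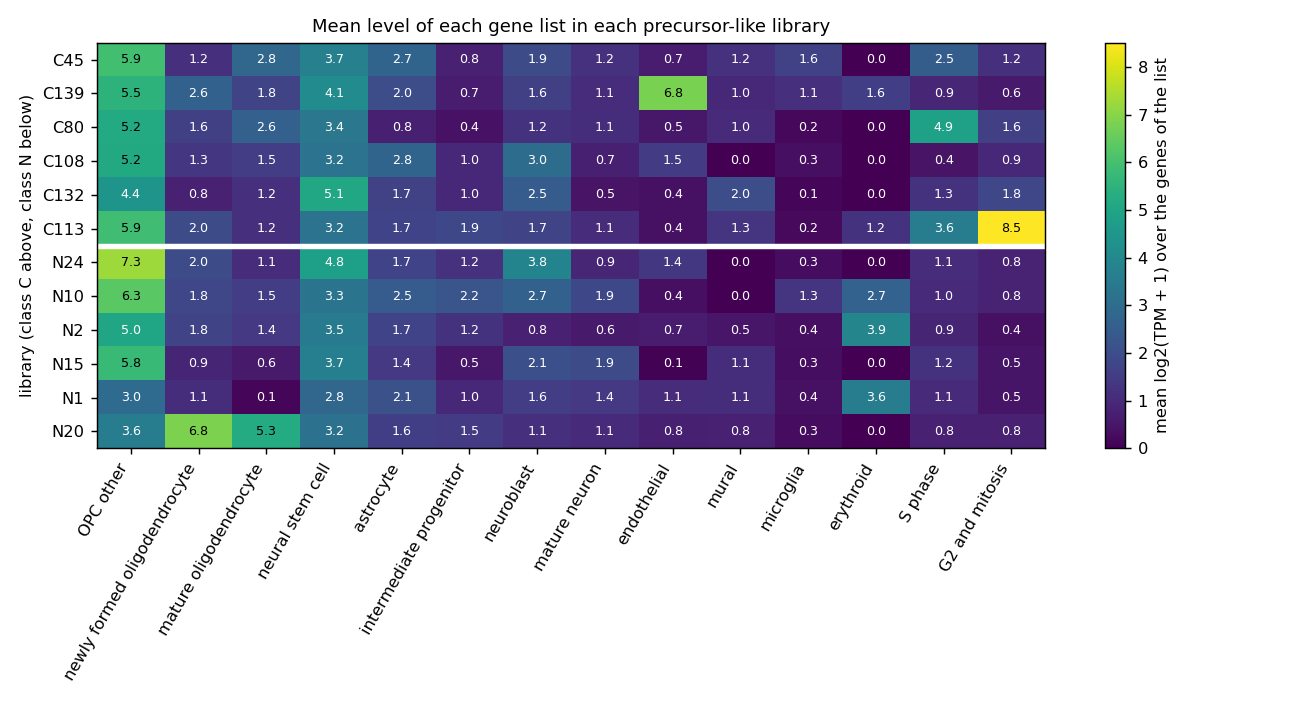
Mean log2(TPM + 1) of 14 gene lists in each precursor-like library, class C above the white line and class N below; OPC other is the list of precursor genes that the choice of members did not use. N20 stands apart in oligodendrocyte lists, C139 in the endothelial list, and C113 and C80 in the cell cycle lists.

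Intermediate progenitor and neuroblast genes had low list means that overlapped between the classes. The intermediate progenitor list had 0.42, 0.86 and 1.85 in C and 0.55, 1.23 and 2.25 in N. Sox4, a transcription factor of newborn neurons and early oligodendrocytes, was at 26.3 TPM in C132 and at most 1.23 TPM in the other C members, while N20 had 106.8 TPM and N2, N10 and N24 had 36.1 to 57.2 TPM (difference -2.89). The neuroblast list had 1.23, 1.85 and 3.01 in C and 0.77, 1.81 and 3.84 in N.

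Genes of general cell function were called in both directions. Rpl14, a ribosomal protein, was at 303 to 1682 TPM in every C member (difference 5.53). In N it was at 750 TPM in N15, 203 TPM in N1 and 0 to 12.4 TPM in the other 4 members. Outside the members its median was 979 TPM in C and 1345 TPM in N libraries, so those 4 N members were the unusual ones. The cytosolic ribosome list (39 genes, 38 past the filter) had 7 genes called higher and 8 lower and a median of 0.13. These genes have many near-identical pseudogene copies that can take up reads. Ndufb9, a subunit of respiratory complex I, went the other way, with 875 TPM in C113 and at most 8.24 TPM in the other C members, against 769 to 1627 TPM in 5 N members and 7.21 TPM in N10 (-6.41). Its list (27 genes, all past the filter) had 5 genes called higher and 7 lower, with 20 of 27 means lower in C and a median of -0.74. Over all 6563 genes 2932 had a lower mean in C, and 12.7% were called higher and 9.04% lower. Aldoa, a glycolytic aldolase, was at 1125 TPM in C139 and at most 24.4 TPM in the other C members, against 544 to 3490 TPM in 4 N members and at most 6.83 TPM in the other 2 (-3.31). Of the 12 glycolysis genes past the filter 1 was called in each direction. Tubb2b, a beta tubulin, was at 0, 93.4 and 1321 TPM in C and 54.9, 453 and 1783 TPM in N (-3.34).

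Lists for immediate early and heat shock genes, interferon and MHC class I genes, cholesterol synthesis and BMP signalling had at most 1 gene called each. Among all genes the called shares were 12.7% higher and 9.04% lower. Klf6, an early-response factor, was at 1175 TPM in C113 and at most 20.6 TPM in the other C members and 4.06 TPM in N (2.62, or 1.19 without C113). H2-D1, an MHC class I heavy chain, was at 1168 TPM in C139, 678 TPM in C80 and 183 TPM in C108 and at most 78.6 TPM in N (2.59, or 1.51 without C139 and 1.66 without C80). Cyp51, a sterol demethylase, was at most 2.14 TPM in C, with 415 TPM in N20 and 86.9 TPM in N24 (-2.35, or -1.20 without N20). Id2, an inhibitor of bHLH factors, was at 0, 215 and 684.5 TPM in C and 0, 652 and 1281 TPM in N (-1.71).

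Outside the lists, the members of both classes shared further genes. Those named here are the 3 with the largest excess over the other 160 libraries among genes seen in all 12 members, taken after their values were seen, and they are a description since the members were chosen by related genes. Pllp, the membrane protein plasmolipin, was at 28.6, 156 and 978 TPM in the C members and 169, 1353 and 2464 TPM in the N members. Pllp was thus called lower in C (difference -2.62), though the ranges overlapped. It reached a TPM of 1 in 18.8% of the other libraries. Gng3, a G protein gamma subunit, was at 2.77, 850.0 and 1598 TPM in C and 247, 1181 and 1642 TPM in N, and was seen in 37.5% of the others. Ugdh, the enzyme that makes UDP-glucuronate for proteoglycan chains, was at 11.7, 379 and 1385 TPM in C and 1.63, 356 and 827 TPM in N, and was seen in 36.2% of the others.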

How the data were processed

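Single-cell RNA-seq libraries of the mouse dentate gyrus were analysed. Library preparation from total RNA used NuGEN Ultralow V2, per the labels' protocols. The authors' deposited values are TPM per gene, estimated with RSEM on build mm9, per the submitters' processing notes; the sources used here give no version, aligner, annotation or cell filter. TPM keeps no depth, so no count model could be used. Of 172 columns, 171 match 1 of 173 sample titles each; C27 fits 2 titles and served as a C library only. RSEM divides shared reads among gene copies, so ribosomal proteins, tubulins and globins are uncertain.

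Values were log2(TPM + 1), which understates differences of low genes. Members had a mean of at least 4 over 8 genes. Class means (C minus N) were compared over 6563 of 23307 genes with a TPM of at least 1 in at least 3 members, calling differences of at least 2. Doublets were not called. No p-value was computed, as the labels name no animal. List means use all list genes in the table (433 of 438, in 30 lists). Members and lists were chosen with earlier results of these data known. Named genes are 20 set genes, the member of each list with the largest difference, and up to 8 non-overlapping genes at either end, of which 1 set gene is not reported here; further list members were named after their values were seen. Alternatives were other pseudocounts, filters, scaling, averages, member levels and left-out libraries. Python 3.11.15, numpy 2.4.6 and pandas 2.3.3 were used.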

Additional observations from a re-analysis of the deposited data

Results flagged for a closer look

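In 6 libraries of a class, the highest or lowest library was picked out when its gap to the nearest other exceeded 0.625 of the class range. In 226 class ranges 54 such libraries came out, where chance alone gives about 1 in 20 for well-behaved values; genes listed at 0 in most libraries meet the rule easily. Values here are log2(TPM + 1), or list means of it, and no cause was tested.

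In class C, C113 was highest in the G2 and mitosis list (8.51), the high mobility group and chromatin list (9.01), the cholesterol synthesis list (3.67) and Ndufb9 (9.78), and lowest in Rpl14 (8.25). It was also highest in Ccnb1 (11.77), Jag1 (3.49) and Nfasc (2.13). C139 was highest in the endothelial list (6.81), Nes (7.40), Slco1a4 (8.86), Calb2 (5.19), Pvalb (2.29) and Cldn5 (9.69). C80 was lowest in Gpr17 (0.58) and Pcdh15 (0.34) and highest in Hopx (1.74), Sdc4 (0.82) and Gins2 (10.96). C108 was highest in Enpp6 (1.12) and lowest in Cnp (2.56). C45 was highest in Bcas1 (6.04) and lowest in Fabp7 (2.46). C132 was highest in Sox4 (4.77) and lowest in Cntn1 (5.69), Gng3 (1.91) and Tnr (0).

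In class N, N20 was highest in the newly formed oligodendrocyte list (6.83), the mature oligodendrocyte list (5.25), Bmp4 (4.46), Enpp6 (7.56), Mag (3.07), Mog (2.90) and Cdk1 (1.60), and lowest in Lhfpl3 (5.21), Cspg4 (0), Cntn1 (1.17) and Serpine2 (9.82). N24 was highest in C1ql1 (9.62), Nes (3.32), Spry4 (6.52), Dll1 (8.77), Klf6 (2.34), Cacng4 (10.49), Etv5 (9.84) and Sox9 (7.54). N10 was highest in the microglia list (1.33) and Slco1a4 (0.55) and lowest in Ndufb9 (3.04). N1 was highest in Gabrg1 (7.21) and lowest in Olig2 (0), N2 was highest in Kcnj10 (8.74), and N15 was highest in Supt16 (0.64) and Gins2 (2.26).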

How the results depend on the processing

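The eCFP difference (5.07) kept its direction under all 26 alternatives, from 3.81 to 6.31. Counts of called genes (836 higher and 593 lower in C) were 1449 and 954 with a pseudocount of 0.1, 244 and 224 with 10, and 1499 and 1196 on the log2 of the mean TPM. With members at a rule mean of at least 5, which drops N1 and N20, 896 genes were lower. Without C113, C139, N1 and N20 together, chosen after seeing the data like the setting without N20 and C139, 974 were lower. Genes whose ranges were apart (1 upward, 2 downward) numbered 6 and 1 with another scaling, 0 and 0 at a rule mean of at least 3, and 8 and 27 at 5. They numbered 6 and 4 without N20, 6 upward without C139, 3 upward without C113, 11 and 9 without N20 and C139, and 26 and 67 without the 4. Leaving out single libraries gave 3 to 14 upward and 2 to 6 downward; fewer libraries make separation easier.

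Medians of several lists moved by more than the spread between libraries. Notch signalling (1.21) was 2.06 and 0.58 with pseudocounts of 0.1 and 10, 0.17 without a filter, 0.15 with a filter over the series and 0.27 at a rule mean of at least 3; the mural list was 1.53 and 0.19 with those pseudocounts. The mature neuron list (-1.16) was -0.044 without a filter, 0.00 with a series filter and with class medians, -0.53 with another scaling, 0.031 at a rule mean of at least 5, -0.33 without C139, -0.55 without C113, 0.10 without N20 and C139 and 0.74 without the 4. On the log2 of the mean TPM, S phase was 5.05, G2 and mitosis 5.89, endothelial 3.70, G1 cyclins 2.52, Id and BMP 1.62 and neuroblast -1.16. The astrocyte list was -0.74 with class medians and -0.76 without N20. At a rule mean of at least 3, mature oligodendrocyte was -1.72 and intermediate progenitor 0.47; at 5, PDGF and FGF was 0.33 and tubulins 0.84. Neuroblast was 0.94 without C139 and 0.93 without N20 and C139, and interferon -0.54 in the last. Without C113, intermediate progenitor was -1.04 and Id and BMP -0.69. Without the 4, these were -1.57 and -1.15, PDGF and FGF 0.17, ion channels -1.02, tubulins 0.59 and interferon -1.36. Leaving out single libraries gave -0.79 to 0.36 (astrocyte), -1.04 to 0.17 (intermediate progenitor), -0.74 to 1.30 (neuroblast), -1.06 to 0.21 (mature neuron), 0.81 to 1.74 (Notch), -0.69 to 1.10 (Id and BMP), -0.50 to 1.43 (immediate early and heat shock) and -0.46 to 1.49 (interferon). On the log2 of the mean TPM, Cnp (-0.79) turned, N20 being the largest value, and Etv5 was -0.10 and Hmgn3 -0.011. Without the 4, Hmgn3 was -0.40 and Pcdh15 -0.013; Pvalb was 0 with class medians. The cause of the other changes was not tested. No paired analysis was possible because the results come from no test, and the numbers in the titles are eCFP ranks. TPM holds no depth, so absence cannot be told from a missed transcript.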
